A study of Mus musculus with 12 samples.

Results

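The 10 genes described here encode RNA-binding proteins that set how transcripts are spliced, stabilised and translated as neural progenitors become neurons. They were taken by name, with no cut on their values: *Ptbp1*, *Ptbp2*, *Rbfox1*, *Rbfox2*, *Rbfox3*, *Elavl2*, *Elavl3*, *Elavl4*, *Msi1* and *Srrm4*. Earlier results of these data were known when they were chosen, so counts of members called are descriptions. All 10 were found among the 24091 genes of the expression table. Expression was measured by RNA sequencing of poly(A)-selected RNA from 12 mouse cerebellar samples in 4 groups of 3. Medulloblastomas, tumors of the cerebellum, came from Brca2-mut;Trp53-mut mice GB344, GB359 and GB370, and the adjacent cerebellum came from the same 3 mice. Control cerebellum without tumor came from Brca2-mut;Trp53-WT mice GB361, GB508 and GB512 (the Trp53-WT controls) and from Brca2-WT;Trp53-mut mice GB517, GB519 and GB520 (the Trp53-mut controls). Tumors and adjacent cerebellum thus carried both mutations, each control genotype carried 1 of them, and no group was wild type for both genes.

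The *Brca2* mutation is a deletion of exons 3 and 4 by Cre recombinase under the human GFAP promoter, which acts in the developing central nervous system. The *Trp53* mutation is a knockout in all cells in which a neo cassette replaces exons 2 to 6. The study's data descriptions place the controls at postnatal day 90, and the study describes tumors and controls as age-matched. Tumor-bearing mice were taken when a tumor or a humane endpoint was reached, and the labels give no age for each mouse. It is not stated whether the Trp53-mut controls carry the Cre transgene. Values are in TPM, a unit of transcript abundance scaled for transcript length and library total, so levels can be compared between genes. A single entry, *Mir6236*, took from 4.25% (adjacent GB359) to 11.5% (control GB508) of all TPM in a sample. A larger share leaves less of the fixed total to all other genes of that sample. The read depth behind each value is unknown, and the errors given are the spread between samples, each from 1 mouse. In TPM summed over a gene, the targeted genes do not check the genotypes, because exons outside the deletions still count: *Trp53* was 33.1 to 37.2 TPM in Trp53-WT and 47.1 to 49.4 in Trp53-mut controls, and *Brca2* was between 3.24 and 4.40 in all controls.

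As background, PTBP proteins bind pyrimidine-rich RNA and repress neuronal exons. PTBP1 is made in progenitors and glia, and its loss during neuronal differentiation lets the neuronal relative PTBP2 and many neuronal exons appear, a switch in which the microRNA miR-124 represses *Ptbp1*. RBFOX proteins bind GCAUG motifs and activate or repress exons by position, and RBFOX3 is the antigen NeuN, used to stain mature neurons such as cerebellar granule cells. SRRM4 activates neuronal microexons. The neuronal ELAVL (Hu) proteins bind AU-rich RNA and stabilise and splice neuronal transcripts, and MSI1 is a translational regulator of neural stem and progenitor cells.

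The tissue labels were checked against marker genes. A list of 9 markers of granule cell progenitors and proliferation summed to between 2341 and 2908 TPM in tumors and between 43.1 and 70.3 in the 6 controls. All 8 that reached 1 TPM on both sides rose in tumors, and *Atoh1*, which did so in tumors alone, was between 119 and 319 TPM there. Among controls, *Mki67*, *Top2a* and *Cdk1* reached 1 TPM only in GB512, at 5.63, 8.42 and 2.72 TPM. A list of 8 markers of mature granule neurons summed to between 239 and 679 TPM in tumors and between 5210 and 6524 in controls, and 8 of 8 fell. Its *Snap25* and *Vsnl1* are general neuronal genes, so the sum is not specific to granule neurons. *Snap25* alone was 105 to 218 TPM in tumors and 1968 to 2567 in controls. Markers of other mature cerebellar cells were also lower in tumors: Purkinje cells (7 of 7 fell, sums of 91.7 to 416 TPM in tumors and 6012 to 10042 in controls), oligodendrocytes (7 of 7, 114 to 331 and 3542 to 5440.3), astrocytes and Bergmann glia (6 of 7, 336 to 593 and 1834 to 2328) and inhibitory interneurons (5 of the 5 that reached 1 TPM on both sides, 106 to 203 and 2051 to 2976). Microglial markers were higher for 2 of 6 genes, with sums of 188 to 276 TPM in tumors and 77.2 to 150.2 in controls, and 1 of 5 endothelial markers fell. The part of these markers in the changes of the 10 genes was not tested. The adjacent cerebellum was not free of the progenitor list: it summed to 858 TPM in GB344, 700.0 in GB359 and 105.0 in GB370. Markers of choroid plexus separated the control genotypes, from 17.7 to 877 TPM in Trp53-WT and from 3962 to 5183 in Trp53-mut controls. In bulk tissue, fewer cells of a type and less RNA per cell cannot be told apart.

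In tumors against all 6 controls, *Ptbp1*, *Elavl2* and *Msi1* rose, and *Rbfox1* and *Rbfox3* fell. Of the other 5 genes, *Ptbp2* and *Rbfox2* separated the groups with changes under 2-fold, and *Elavl3*, *Elavl4* and *Srrm4* had overlapping ranges. A gene was called by limma where p, adjusted by Benjamini-Hochberg over all genes tested, was under 0.01 and the log2 fold change was 1 or more in size. Among all 16241 genes tested in this comparison, 14.4% were called higher and 21.5% lower, against 3 and 2 of the 10 members, so the members' count of lower calls is near the background. Tumor and control values did not overlap for 64% of all genes, and for 7 of the 10 members. The median log2 fold change was -0.14 over the members and -0.11 over all genes.

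**Figure D1:**
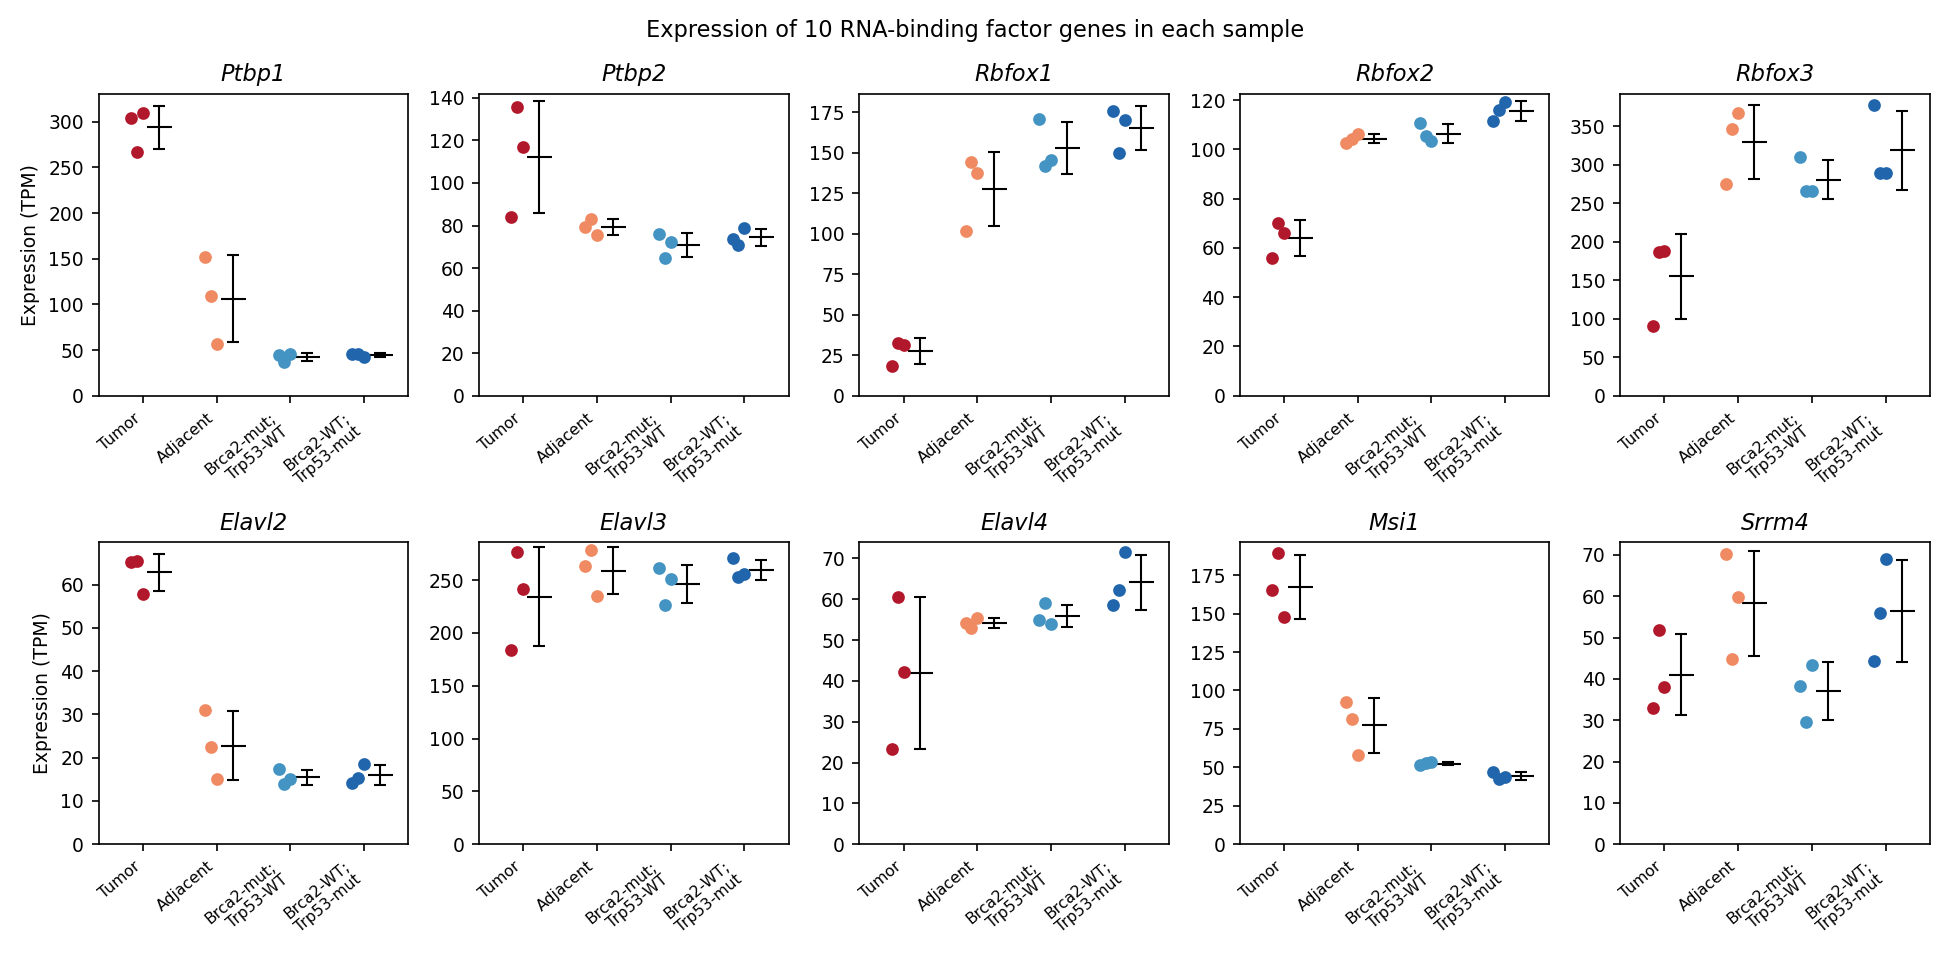
Expression in TPM (vertical axes, from 0) of the 10 genes in each of the 12 samples, by group; points are samples, and the bar with whiskers is the mean ± SD of 3 samples. *Ptbp1*, *Elavl2* and *Msi1* lie highest in the 3 tumors, and *Rbfox1* and *Rbfox2* lie lowest in tumors. Adjacent cerebellum lies between for *Ptbp1* and *Msi1*, and for *Elavl2* its GB370 sample lies among the controls.

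*Ptbp1*, which encodes the progenitor and glial splicing repressor, lies on chromosome 10 (GRCm38.p6, the RefSeq release of mm10, chr10:79854432-79864435, plus strand). Its level was 304 TPM in tumor GB344, 267 in GB359 and 310.0 in GB370. The 6 controls ran from 36.8 to 46.1 TPM with a median of 45.0. Every tumor lay above every control, and the tumor mean of 294 ± 23.2 TPM (SD, n = 3) was 6.75 times that of controls, 43.5 ± 3.52 (SD, n = 6). On the log2 scale the change was 2.73 (SE 0.09, adjusted p = 9.81e-09), larger than that of 97.3% of all genes tested. Against each control genotype alone, 4 of the 10 members were called, beside 35.8% of all genes for Trp53-mut and 34.8% for Trp53-WT controls. The values of *Ptbp1* were close there, 2.69 (SE 0.09) for Trp53-mut and 2.77 (SE 0.12) for Trp53-WT controls.

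*Ptbp2* (chr3:119718741-119784647, minus strand), the neuronal relative that PTBP1 represses, was not lower in tumors. TPM per gene do not show which of its exons were included, so its repression by PTBP1 was not tested. The tumors GB344, GB359 and GB370 measured 84.0, 136 and 117 TPM, and controls 64.8 to 78.9 with a median of 72.8. Each tumor lay above each control, GB344 by the least. The log2 fold change of 0.59 (SE 0.13, adjusted p = 0.00226) was under the minimum of 1, so the gene was not called, and its 95% interval ran from 0.30 to 0.89. These intervals are for 1 gene at a time, with no correction for the number of genes.

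The pair therefore exchanged rank. *Ptbp1* was 3.62, 1.97 and 2.65 times *Ptbp2* in tumors GB344, GB359 and GB370, and 0.539 to 0.639 times *Ptbp2* in the 6 controls. Of the summed TPM of both genes, *Ptbp1* made up 72.4% ± 6.02 (SD, n = 3) in tumors and 37.4% ± 1.59 (SD, n = 6) in controls. The sum itself was 406 ± 19.5 TPM in tumors and 116 ± 7.43 in controls. *Ptbp3*, a broadly expressed relative, had a log2 fold change of 0.95 (SE 0.15, adjusted p = 0.000205) and was not called.

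*Msi1* (chr5:115359059-115455698, plus strand), the progenitor translational regulator, was 165 TPM in tumor GB344, 189 in GB359 and 148 in GB370. Controls ran from 42.6 to 53.2 TPM with a median of 49.1, well below every tumor. The log2 fold change was 1.77 (SE 0.11, adjusted p = 1.55e-07). Its relative *Msi2* moved the other way without being called, at -0.65 (SE 0.09, adjusted p = 0.000114), and *Msi1* made up 77.6% ± 0.797 of the Musashi pair in tumors (SD, n = 3) against 38.8% ± 3.15 in controls (SD, n = 6).

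*Elavl2* (chr4:91211533-91400108, minus strand) was the only 1 of the 3 neuronal *Elavl* genes called. It measured 65.3 TPM in tumor GB344, 65.5 in GB359 and 57.9 in GB370. In controls it was the least expressed of the 10 genes, from 14.0 to 18.6 TPM with a median of 15.2. No tumor overlapped a control, and the log2 fold change was 1.94 (SE 0.11, adjusted p = 1.04e-07).

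*Elavl3* (chr9:22015005-22052146, minus strand) was 184 TPM in tumor GB344, 277 in GB359 and 242 in GB370. Controls ran from 226 to 271 TPM with a median of 254. The tumor values spanned the control range on both sides. Its log2 fold change of -0.13 (SE 0.12, adjusted p = 0.347) had a 95% interval from -0.39 to 0.13. Quantile normalization gave 0.036, so its sign is not set.

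*Elavl4* (chr4:110203737-110351939, minus strand) varied most between tumors relative to its mean (SD 44.2% of the mean), at 23.3, 60.5 and 42.2 TPM in GB344, GB359 and GB370. Controls ran from 53.9 to 71.6 TPM with a median of 58.8. GB344 and GB370 lay below every control and GB359 within their range. The log2 fold change of -0.60 (SE 0.23, adjusted p = 0.0400) was not called, and its 95% interval ran from -1.12 to -0.08.

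Set against the family, the summed level of the 3 neuronal *Elavl* genes was 339 ± 65.1 TPM in tumors (SD, n = 3) and 329 ± 17.3 in controls (SD, n = 6). The share of *Elavl2* in that sum was 19.0% ± 4.26 in tumors and 4.79% ± 0.449 in controls. *Elavl3* remained the largest part, at 69.0% and 76.9%. *Elavl1*, the relative found in nearly all cells, had a log2 fold change of 0.72 (SE 0.09, adjusted p = 5.60e-05) and was not called.

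*Rbfox1* (chr16:5884793-7412480, plus strand), a splicing regulator of mature neurons, fell by the most among the 10 genes. It was 18.3 TPM in tumor GB344, 32.5 in GB359 and 31.4 in GB370. Controls ran from 142 to 175 TPM with a median of 159.9. The ranges were far apart, and the log2 fold change was -2.53 (SE 0.17, adjusted p = 2.98e-07), with controls at 5.79 times the tumor mean.

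*Rbfox3* (chr11:118489760-118911597, minus strand), the NeuN gene, was 90.8 TPM in tumor GB344, 186 in GB359 and 188 in GB370. Controls ran from 265 to 378 TPM with a median of 289. All 3 tumors lay below all controls, GB344 by the most. The log2 fold change of -1.01 (SE 0.22, adjusted p = 0.00180) only just passed the fold minimum. Without tumor GB344 it was -0.67 (adjusted p = 0.00102) and not called, and against each control genotype alone it was -1.10 (SE 0.29, adjusted p = 0.0141) and -0.92 (SE 0.28, adjusted p = 0.0223), for Trp53-mut and Trp53-WT, also not called.

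*Rbfox2* (chr15:77078990-77308434, minus strand), the family member also made outside neurons, was 56.0 TPM in tumor GB344, 70.3 in GB359 and 65.9 in GB370. Controls ran from 103 to 119 TPM with a median of 111. The ranges did not meet, but the log2 fold change of -0.79 (SE 0.09, adjusted p = 1.31e-05) was under the minimum. Together the 3 *Rbfox* genes summed to 247 ± 70.5 TPM in tumors (SD, n = 3) and 569 ± 56.7 in controls (SD, n = 6). *Rbfox1* took 11.1% ± 0.126 of the sum in tumors, nearly the same in all 3, and 27.9% ± 1.14 in controls.

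*Srrm4* (chr5:116439268-116592562, minus strand), the microexon activator, was 33.1 TPM in tumor GB344, 51.9 in GB359 and 38.0 in GB370. Controls ran from 29.6 to 68.9 TPM with a median of 43.8, and all 3 tumors lay inside that range. The log2 fold change was -0.16 (SE 0.24, adjusted p = 0.567), with a 95% interval from -0.69 to 0.37. *Srrm3*, its relative, fell by 1.12 on the log2 scale (SE 0.19, adjusted p = 0.000417).

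**Figure D2:**
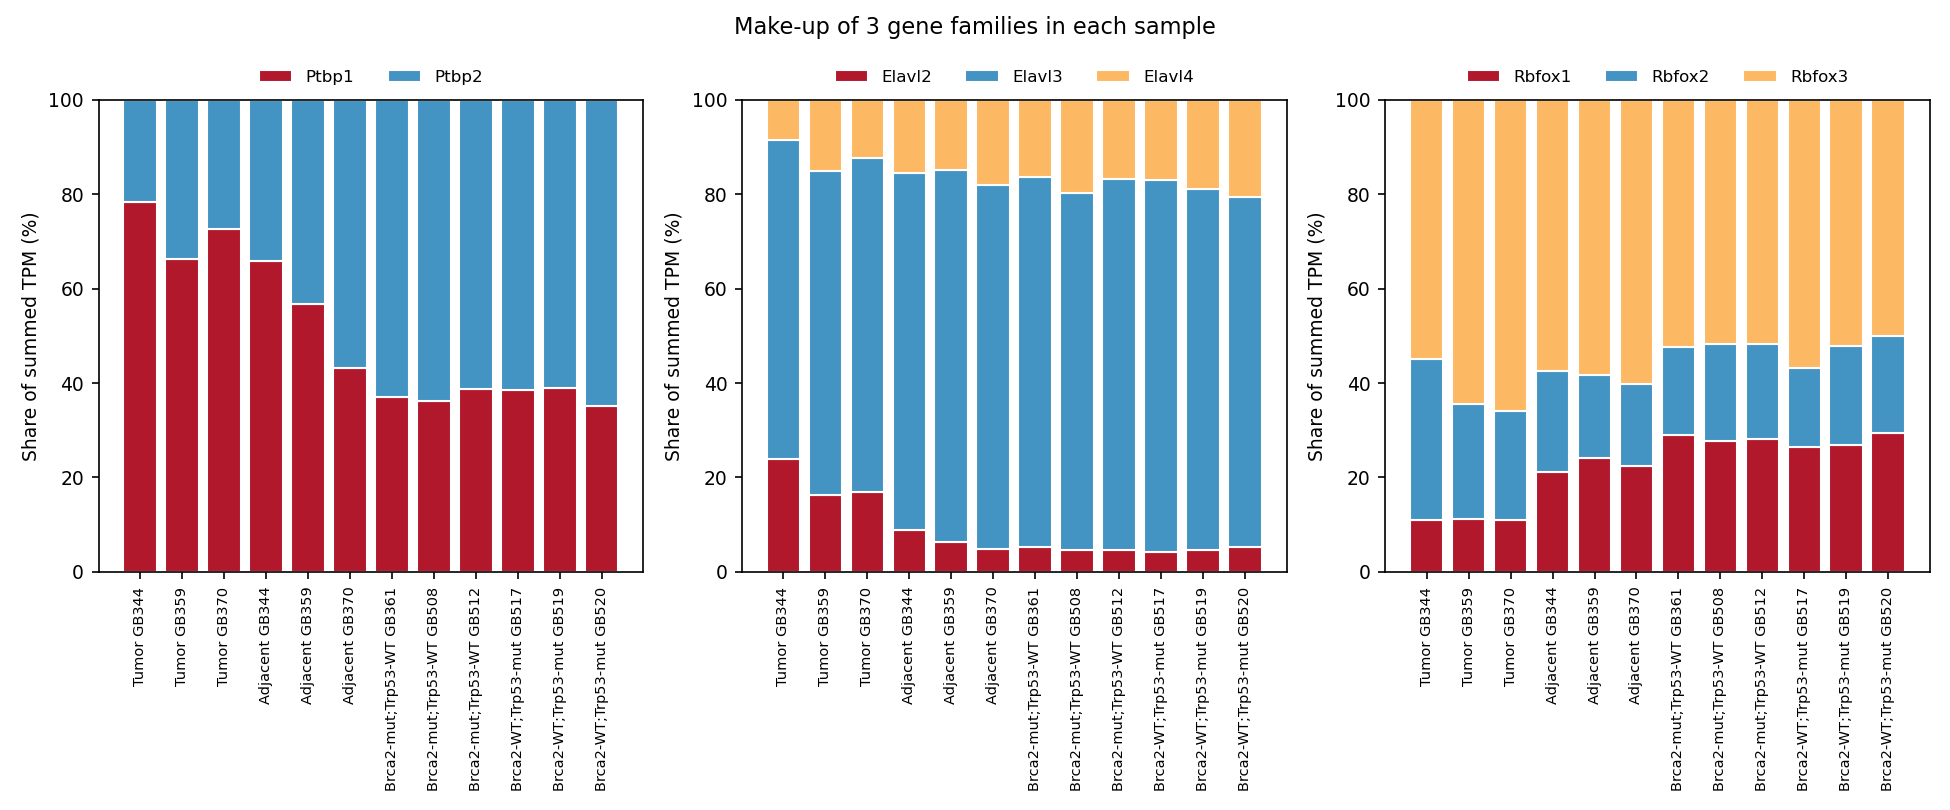
Share in percent (vertical axis) of each gene in the summed TPM of its family, for the 12 samples in order of group: the *Ptbp1* and *Ptbp2* pair, the 3 neuronal *Elavl* genes and the 3 *Rbfox* genes. The *Ptbp1* share is 66.3% to 78.4% in tumors and 35.0% to 39.0% in controls, and the *Rbfox1* share is 11.0% to 11.3% in tumors.

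Ranked by mean TPM, the order in tumors was *Ptbp1*, *Elavl3*, *Msi1*, *Rbfox3*, *Ptbp2*, *Rbfox2*, *Elavl2*, *Elavl4*, *Srrm4* and *Rbfox1*. Neighbours in this order had overlapping ranges over the 3 tumors, except *Ptbp2* above *Rbfox2* and *Srrm4* above *Rbfox1*. In controls the order was *Rbfox3*, *Elavl3*, *Rbfox1*, *Rbfox2*, *Ptbp2*, *Elavl4*, *Msi1*, *Srrm4*, *Ptbp1* and *Elavl2*. There, *Rbfox3* and *Elavl3*, *Ptbp2* and *Elavl4*, *Msi1* and *Srrm4*, and *Srrm4* and *Ptbp1* overlapped, and the other neighbours did not. *Ptbp1* was thus first in tumors and ninth in controls, and *Rbfox1*, among the leading genes of controls, was last in tumors.

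The 3 tumors did not hold these genes at 1 level. GB344 had the lowest value of the 3 for 7 of the 10 genes, which were *Ptbp2*, *Rbfox1*, *Rbfox2*, *Rbfox3*, *Elavl3*, *Elavl4* and *Srrm4*, and the highest for 0. GB359 had the highest value for 8 of the 10. The share of all genes lowest in GB344 or highest in GB359 was not counted, so these counts describe the members alone. The mature granule neuron markers summed to 239 TPM in GB344, 679 in GB359 and 548 in GB370, and their part in these differences was not tested.

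Adjacent cerebellum came from the tumor-bearing mice and carried the same mutations as the tumors. *Ptbp1* was 152, 109 and 57.1 TPM in the adjacent cerebellum of GB344, GB359 and GB370, *Elavl2* was 30.9, 22.4 and 15.0, and *Msi1* was 92.7, 81.6 and 57.9. All 3 genes kept the same order of mice, which is the order of the summed progenitor markers (858, 700.0 and 105.0 TPM). *Rbfox1*, which fell in tumors, broke that order, with GB344, GB359 and GB370 at 43.6%, 11.3% and 16.2% of the way from the control mean to the tumor mean. On the same scale, GB344 lay 43.5% of the way for *Ptbp1*, 32.2% for *Elavl2*, 37.2% for *Msi1* and 30.8% for the marker sum. GB370 lay 5.45% of the way for *Ptbp1*, -1.62% for *Elavl2*, 7.99% for *Msi1* and 2.08% for the marker sum. With 3 mice this order is a description, and the part of the progenitor markers in it was not tested.

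**Figure D3:**
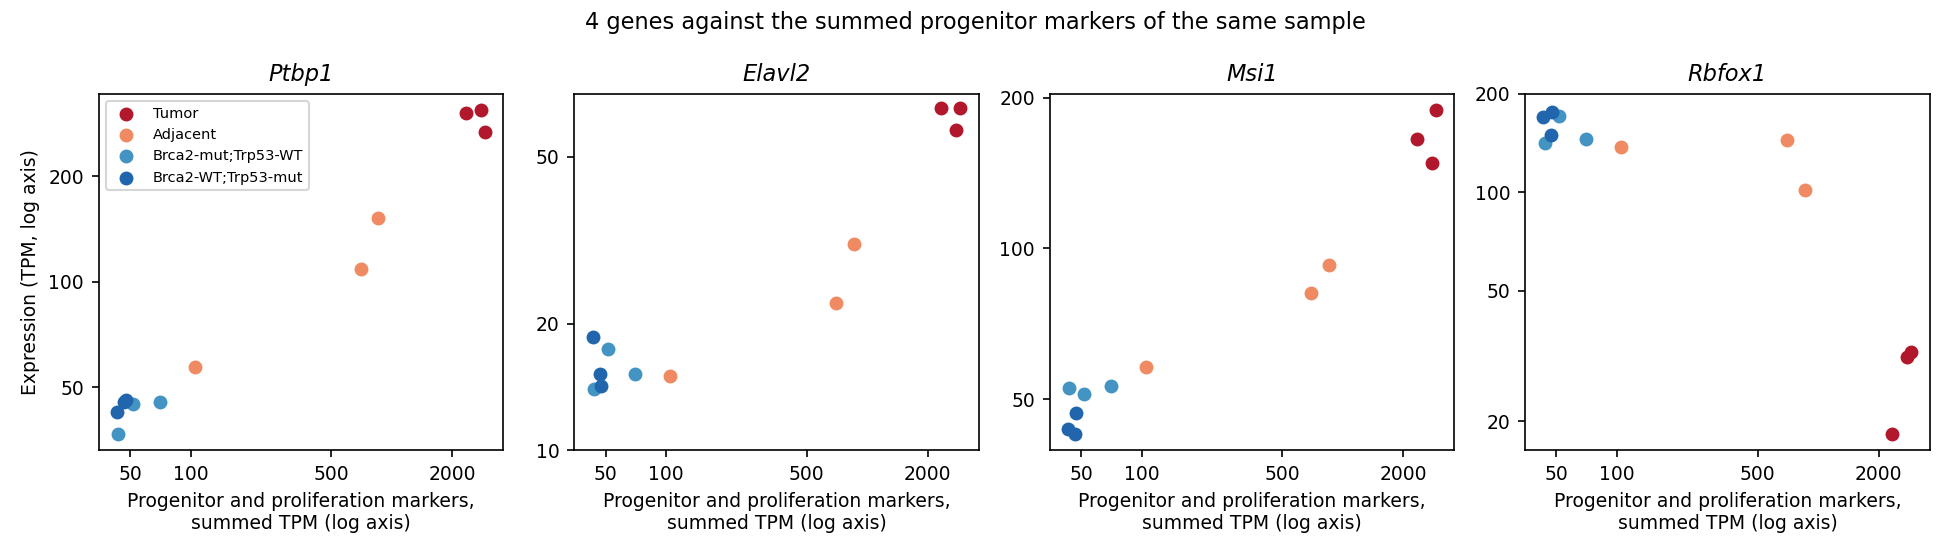
Level in TPM of *Ptbp1*, *Elavl2*, *Msi1* and *Rbfox1* (vertical, log axis) against the summed TPM of 9 progenitor and proliferation markers in the same sample (horizontal, log axis), for the 12 samples. The 3 adjacent samples, at 105.0 to 858 TPM of markers, lie between the controls and the tumors on the horizontal axis, and *Ptbp1* and *Msi1* are above all controls in each of them.

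In tumors against adjacent cerebellum, *Ptbp1*, *Elavl2* and *Msi1* again passed the test as higher and *Rbfox1* as lower. Of 15845 genes tested, 4.76% were called higher and 18% lower, beside 3 and 1 of the 10 members. The split over all genes depends on the scaling: 20.9% of all calls were higher as deposited, 34.4% with median-of-ratios scaling and 42.2% with quantile normalization. The log2 fold changes were 1.57 for *Ptbp1* (SE 0.33, adjusted p = 0.00831), 1.48 for *Elavl2* (SE 0.25, adjusted p = 0.00336) and 1.12 for *Msi1* (SE 0.20, adjusted p = 0.00390). Within each mouse the tumor was higher, by 0.99, 1.28 and 2.42 for *Ptbp1* and by 1.05, 1.51 and 1.88 for *Elavl2* on the log2 scale in GB344, GB359 and GB370.

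*Rbfox1* was 102, 144 and 138 TPM in adjacent cerebellum of GB344, GB359 and GB370. Tumor minus adjacent was -2.41, -2.11 and -2.09 on the log2 scale in these mice, lower in the tumor of each, and the fold change was -2.21 (SE 0.25, adjusted p = 0.000685). *Rbfox3* was 275, 347 and 367 TPM in the same adjacent samples, with a log2 fold change of -1.15 (SE 0.30, adjusted p = 0.0176), not called. With the mouse as a block, *Rbfox3* was called (adjusted p = 0.00657) and *Ptbp1* was not (adjusted p = 0.0112). These calls are near the threshold: without any 1 tumor, or without the adjacent sample of GB359, *Rbfox1* was the 1 member still called.

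The remaining members gave no call between tumor and adjacent cerebellum. *Rbfox2* was 103, 104 and 106 TPM in adjacent cerebellum, above all tumors (log2 fold change -0.70, SE 0.12, adjusted p = 0.00388). *Ptbp2* was 79.3, 83.2 and 75.4 TPM, and each was below each tumor (0.47, SE 0.18, adjusted p = 0.0717). *Elavl3* at 263, 279 and 235 TPM, *Elavl4* at 54.1, 53.1 and 55.4 TPM and *Srrm4* at 70.2, 44.8 and 59.8 TPM overlapped the tumors. Their log2 fold changes were -0.16, -0.46 and -0.50, with 95% intervals from -0.57 to 0.25, from -1.21 to 0.29 and from -1.04 to 0.04.

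**Figure D4:**
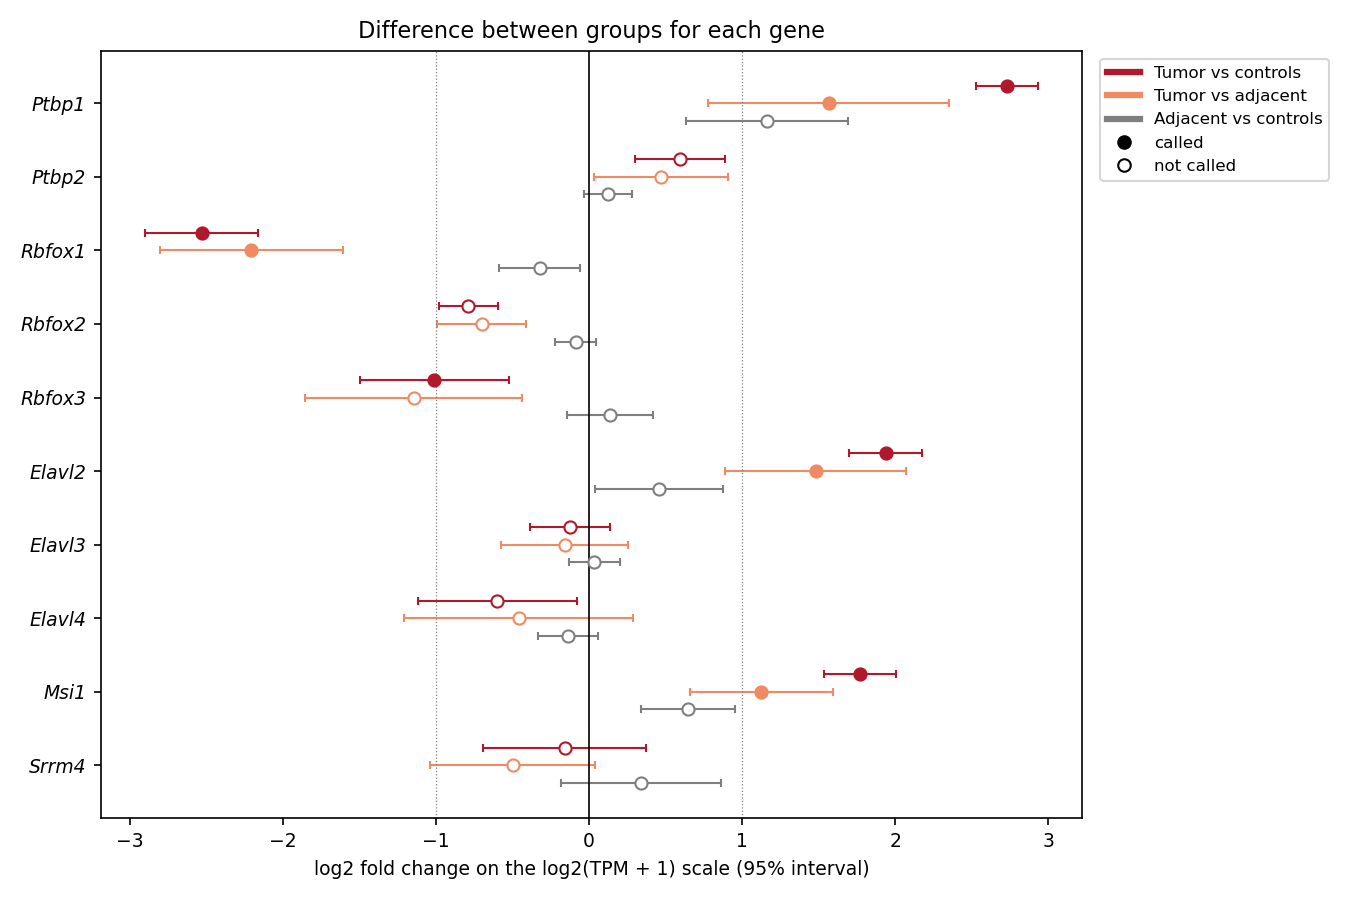
Log2 fold change on the log2(TPM + 1) scale (horizontal) with its 95% interval for each of the 10 genes in 3 comparisons; filled points were called and open points were not, and dotted lines mark the fold minimum. *Ptbp1*, *Elavl2* and *Msi1* are filled and positive in both tumor comparisons, and *Rbfox1* is filled and negative in both.

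In adjacent cerebellum against all 6 controls, limma called 0 of the 10 members, and 0.236% of the 16091 genes tested. *Ptbp1* and *Msi1* lay above all controls in every adjacent sample, as 11.7% of all genes did, with log2 fold changes of 1.16 (SE 0.24, adjusted p = 0.0175) and 0.65 (SE 0.14, adjusted p = 0.0200). *Elavl2* overlapped the controls through GB370 (0.45, SE 0.19, adjusted p = 0.118). *Rbfox1* had a log2 fold change of -0.32 (SE 0.12, adjusted p = 0.0839). Without the adjacent sample of GB370, which had the lowest marker sum, the change of *Ptbp1* was 1.55 and was called (adjusted p = 0.000136), and without that of GB344, which had the highest, it was 0.85 and was not (adjusted p = 0.0626). The members with unadjusted p under 0.05 are the 4 named in this paragraph, and 5551 genes had one in all.

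Between the control genotypes, which share no mutation, 0 of the 10 members were called by limma, against 0.0578% of 15575 genes. *Srrm4* was 38.2, 29.6 and 43.4 TPM in Trp53-WT and 44.2, 55.8 and 68.9 in Trp53-mut controls, a log2 difference of -0.58 (SE 0.18, adjusted p = 0.156). *Rbfox2* was 111, 105 and 103 against 111, 116 and 119 TPM (-0.12, SE 0.06, adjusted p = 0.312). *Msi1* went the other way, 51.2, 52.7 and 53.2 against 47.0, 42.6 and 43.6 TPM (0.24, SE 0.07, adjusted p = 0.133). Values of these 3 genes did not overlap between the genotypes, as for 27% of all genes. By direction, 20.3% of all genes lay lower in Trp53-WT controls without overlap and 6.7% higher, and the median over all genes was -0.073. With median-of-ratios scaling *Rbfox2* was -0.033 and *Msi1* 0.32. *Srrm4* and *Msi1* had an unadjusted p under 0.05, as 3123 genes did. The choroid plexus and Purkinje cell markers also differed between these groups, and their part was not tested.

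The start regions of the genes that moved together are shown as the sequence against which these levels can be read. RefSeq promoter windows of GRCm38.p6 were found for 8 of the 10 members, all except *Rbfox2* and *Msi1*. The 250 bases before an annotated start are printed 5′ to 3′ on the strand of the gene, with matches to any of 4 searched motifs in capitals. RefSeq lists several starts for some genes. The window of *Elavl2* is the outermost of 6 and overlaps the first bases of the annotated gene, both windows of *Rbfox1* are shown, and the 1 window of *Rbfox3* lies inside the annotated gene, at an inner start. *Ptbp1* and *Elavl2* rose in tumors, and *Rbfox1* and *Rbfox3* fell.
Ptbp1, chr10:79854182-79854431, plus strand: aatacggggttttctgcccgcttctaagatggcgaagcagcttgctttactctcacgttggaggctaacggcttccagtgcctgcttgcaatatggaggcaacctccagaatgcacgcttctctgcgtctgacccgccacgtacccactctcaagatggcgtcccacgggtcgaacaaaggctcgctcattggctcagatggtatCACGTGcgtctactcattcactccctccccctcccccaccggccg
Elavl2, outermost window, chr4:91399985-91400234, minus strand: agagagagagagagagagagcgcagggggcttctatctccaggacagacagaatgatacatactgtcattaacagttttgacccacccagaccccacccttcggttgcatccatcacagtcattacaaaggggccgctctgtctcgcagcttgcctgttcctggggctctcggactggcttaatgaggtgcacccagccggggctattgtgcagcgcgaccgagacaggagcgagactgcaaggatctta
Rbfox1, outer start, chr16:5884543-5884792, plus strand: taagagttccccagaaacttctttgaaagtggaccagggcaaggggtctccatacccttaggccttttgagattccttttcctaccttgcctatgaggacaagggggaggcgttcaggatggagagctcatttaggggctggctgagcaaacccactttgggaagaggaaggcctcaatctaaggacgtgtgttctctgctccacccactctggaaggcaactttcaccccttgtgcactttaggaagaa
Rbfox1, inner start, chr16:7069585-7069834, plus strand: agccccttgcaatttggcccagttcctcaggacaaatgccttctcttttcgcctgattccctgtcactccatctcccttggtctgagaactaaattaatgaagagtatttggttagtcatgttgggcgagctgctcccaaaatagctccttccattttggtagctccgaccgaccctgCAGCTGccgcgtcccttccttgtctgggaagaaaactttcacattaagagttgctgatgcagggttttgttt
Rbfox3, inner start, chr11:118761042-118761291, minus strand: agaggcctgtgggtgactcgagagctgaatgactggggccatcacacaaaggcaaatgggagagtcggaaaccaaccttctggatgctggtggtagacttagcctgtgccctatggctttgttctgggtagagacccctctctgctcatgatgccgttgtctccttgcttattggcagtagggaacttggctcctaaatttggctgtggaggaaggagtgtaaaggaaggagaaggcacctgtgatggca

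The motifs, searched on both strands, were CACGTG and CAGCTG (E-boxes that read the same on both strands), TTTCCCGC (an E2F motif) and TGGGTGGTC (a GLI motif). They overlap in no window shown. *Ptbp1* held CACGTG, beginning 45 bases before the start, as did 6.02% of all 32851 promoter windows of the same length. *Rbfox1* held CAGCTG 72 bases before its inner start, and its outer window held none of the motifs. *Elavl3* held CAGCTG in its 1 window and *Elavl4* in 2 of 4, which overlap and hold the same site. The motif was in 13% of all windows, a share per window and not per gene. The windows of *Elavl2* and *Rbfox3* held none of the 4, and TTTCCCGC and TGGGTGGTC, in 0.895% and 0.225% of all windows, were in no member's window. The *Ptbp1* window held 17 CG dinucleotides and the outermost of *Elavl2* 10, against a median of 6 over all windows. The other *Elavl2* windows, some of which overlap, held 14, 17, 18, 18 and 21. The outer and inner windows of *Rbfox1* held 2 and 6, and that of *Rbfox3* 3. Members not called had 23 (*Ptbp2*), 20 (*Elavl3*), 17 (*Srrm4*) and 14, 4, 5 and 3 (the 4 windows of *Elavl4*). Windows of called members thus held 10 or more where the gene rose and 6 or fewer where it fell. *Msi1* had no window, members not called spanned both ranges, and a link of these counts to direction was not tested. The table sums transcripts per gene, so which start was used in these tissues is not shown by it.

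Genes around the PTBP1 switch were read next. *Rest*, which represses neuronal genes in non-neural cells, was 2.97 TPM in tumor GB344, 2.85 in GB359 and 2.29 in GB370, and overlapped the controls (log2 fold change 0.20, SE 0.13, adjusted p = 0.170). *Rcor1*, which encodes its corepressor CoREST, was 38.4, 36.6 and 35.5 TPM, above all controls but not called (0.90, SE 0.13, adjusted p = 9.41e-05). *Dlg4*, which encodes the postsynaptic protein PSD-95 and is a known target of PTBP1 and PTBP2 repression, fell by 1.95 on the log2 scale (SE 0.13, adjusted p = 3.45e-07). *Gabbr1*, a GABA-B receptor gene with a PTBP-regulated exon, fell by 2.40 (SE 0.20, adjusted p = 1.58e-06). TPM per gene do not show which exons were included in either.

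The host transcript *Mir124a-1hg* was 80.9, 152 and 98.0 TPM in tumors and 198 to 387 TPM in controls, and fell by 1.45 on the log2 scale (SE 0.24, adjusted p = 0.000259). *Mir124-2hg* was 1.39, 4.12 and 23.3 TPM in tumors, on both sides of the controls (-0.55, SE 0.55, adjusted p = 0.390). The entries *Mir124a-2*, *Mir124a-3* and *Mir9-3* were listed at 0 in all 3 tumors, and from 0 to 23.3, from 0 to 31.6 and from 4.97 to 19.8 TPM in controls. They passed the filter on low values through the controls alone, so their tests are not used. *Mir9-1* was not called (adjusted p = 0.0576), and *Mir124a-1* and *Mir9-2* were listed at 0 in every sample. Hairpin entries are short and lie within longer transcripts, so these values are uncertain and do not measure the mature microRNA. Of the 12 genes of this list, 7 reached 1 TPM on both sides, with 0 called higher, 3 lower and 4 not called. Over all genes, 14.4% were called higher and 21.5% lower. The loci *Mir9-1*, *Mir9-2* and *Mir9-3*, on chromosomes 3, 13 and 7, share 1 mature product in RefSeq, shown because their values concern the same microRNA, with its seed (bases 2 to 8) in capitals.
miR-9-5p: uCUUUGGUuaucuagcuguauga

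Other RNA-binding protein genes give the setting of the 10, in tumors against all 6 controls, where 14.4% of all genes were called higher and 21.5% lower. Of 10 further neuronal splicing regulators, 1 rose and 4 fell, with *Khdrbs3* (SLM2) at 1.77 (SE 0.15, adjusted p = 2.00e-06), *Celf4* at -1.69 (SE 0.16, adjusted p = 5.34e-06) and *Khdrbs2* (SLM1) at -1.47 (SE 0.13, adjusted p = 3.10e-06). Of 11 broadly expressed relatives, 10 reached 1 TPM on both sides, of which 2 rose and 0 fell: *Raver1*, which encodes a PTBP1 cofactor (1.69, SE 0.11, adjusted p = 2.18e-07), and *Khdrbs1*, which encodes SAM68 (1.04, SE 0.07, adjusted p = 5.90e-07). *Mbnl3* was 1.25 to 3.17 TPM in tumors and 0.0563 to 0.140 in controls, and passed the filter through the tumors alone. Of 24 hnRNP genes, which encode nuclear RNA-binding proteins with varied roles, 9 rose and 0 fell, led by *Hnrnpab* (2.65, SE 0.08, adjusted p = 6.90e-09) and *Hnrnpf* (2.16, SE 0.08, adjusted p = 1.68e-08). The median log2 fold change was 0.84 over the hnRNP genes, against -0.11 over all genes.

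Of 15 SR protein and related genes, 7 rose and 1 fell, with a median of 0.98; *Srsf10* (1.44, SE 0.15, adjusted p = 9.67e-06) and *Srsf6* (1.42, SE 0.13, adjusted p = 3.17e-06) rose, and *Srsf12* fell by 1.38 (SE 0.14, adjusted p = 6.28e-06). Among 17 genes for mRNA-binding proteins of translation and stability, where *Msi1* and the *Elavl* genes belong by function, 13 reached 1 TPM on both sides, 0 rose and 5 fell, against the 14.4% and 21.5% of all genes. *Cpeb3* fell by 3.14 (SE 0.22, adjusted p = 4.20e-07) and *Cpeb4* by 1.99 (SE 0.18, adjusted p = 3.14e-06), both regulators of translation through cytoplasmic polyadenylation. The median of those 13 genes was -0.26. *Lin28b*, at 0.162 to 0.352 TPM in tumors and 1.52 to 2.73 in controls, passed the filter through the controls alone.

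**Figure D5:**
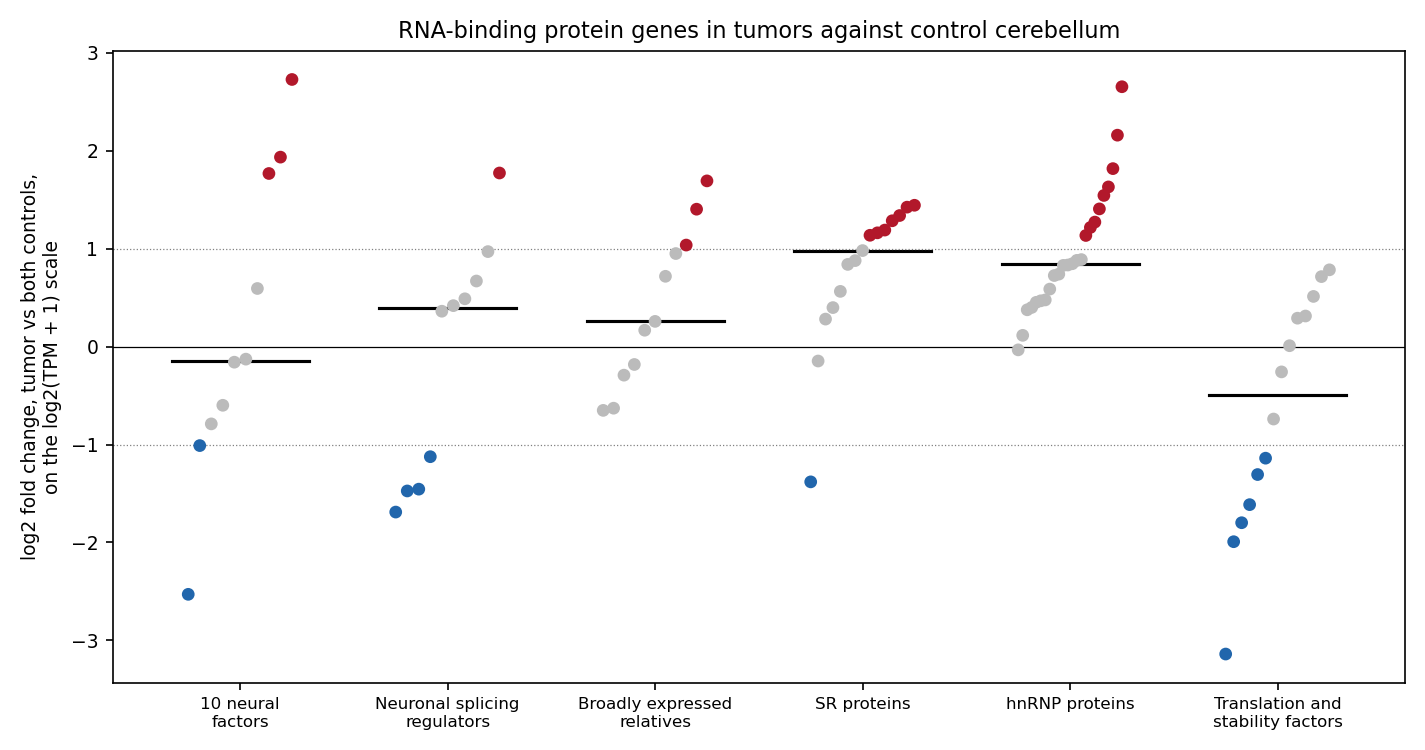
Log2 fold change on the log2(TPM + 1) scale (vertical) in tumors against all 6 controls for each gene of 6 lists; red points were called higher, blue points lower and grey points not called, and the black line is the median of the genes tested, *Mbnl3* and *Lin28b* included. The lines of the SR and hnRNP lists lie at 0.98 and 0.84, and that of the 10 neural factors at -0.14.

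The genes whose log2(TPM + 1) followed each member most closely over the 12 samples were found among 16497 genes by Pearson's r. For *Ptbp1* they were *Ticam2* (r = 0.998) and *Lsg1* (0.997), for *Elavl2* *Ndc1* (0.997) and *Dcaf13* (0.996), and for *Msi1* the ribosomal protein genes *Rps4x* (0.996) and *Rpl7* (0.994). *Rbfox1* was followed by *Epb41l3* (0.997) and *Negr1* (0.997), *Rbfox2* by *Adam22* (0.997) and the sodium channel gene *Scn2a* (0.996), and *Rbfox3* by *Hid1* (0.991) and *Mfsd13a* (0.980). The members that did not separate tumors had weaker closest genes, *Avl9* (0.934) and *Adam9* (0.930) for *Elavl3*, *Ptchd1* (0.968) and *Jak2* (0.958) for *Elavl4*, and *Dicer1* (0.945) and *Sh2d4a* (0.939) for *Srrm4*. *Ptbp2* was closest to *Ccnj* (0.973) and *Atr* (0.972). Between members, r was 0.970 for *Ptbp1* and *Elavl2*, 0.975 for *Ptbp1* and *Msi1*, 0.988 for *Rbfox1* and *Rbfox2*, and -0.915 for *Ptbp1* and *Rbfox1*. The 12 samples share the same 4 groups, so differences between groups enter every r, and all of these values are descriptions.

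Some members overlap other genes on the annotation, and the library kit that the study names, NEBNext Ultra II RNA, does not mark strand. *Ptbp1* overlaps *Plppr3* on the opposite strand, which was 55.8 to 101 TPM in tumors and 19.5 to 25.8 in controls, and *Srrm4* overlaps the antisense gene *Srrm4os*, at 3.85 to 7.37 and 4.11 to 13.7 TPM. Reads from the shared stretches could have been split between the genes.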

How the data were processed

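RNA was sequenced from 3 tumors, adjacent cerebellum of these mice, and 6 control cerebella. Per the labels and the study's methods, the authors quantified poly(A) libraries read at 75 bp with Salmon 0.8.1 (submitters' processing notes) against mm10 known genes and summed transcripts to genes. The deposited values are TPM, normalised by the authors for transcript length and library total, and 0 sample columns were left unused. Depth per sample is unknown, so no counting error is given and the number of mice limits precision. The study's test on counts was not repeated here, because counts were not used.

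TPM were transformed to log2(TPM + 1), and this pseudocount understates changes of genes with low TPM. Genes that reached 1 TPM in 3 or more samples of the groups compared were fitted with limma 3.58.1 (eBayes with trend) in R 4.3.3, using only the groups compared, with Benjamini-Hochberg adjustment over all genes tested. Calls needed an adjusted p under 0.01 with a log2 fold change of 1 or more in size, as in the study. The 6 comparisons were tumor against all controls, each control genotype and adjacent cerebellum, adjacent cerebellum against all controls, and the control genotypes against each other. Model code was tested on simulated data. Other steps used Python 3.11.15 with pandas 2.3.3 and matplotlib 3.10.9.

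Tumor and adjacent samples are paired by mouse number in the labels. Their deviations from the group means correlated at 0.228 (GB344), 0.148 (GB359) and 0.148 (GB370) over 16498 genes. Samples of different mice were not correlated in this way, so these values do not test the pairing. No 2 libraries were alike enough to be 1 library deposited under both names (highest correlation of any pair 0.984). Where nothing says otherwise, each sample is 1 mouse.

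The members and gene lists were chosen with earlier results of these data known. Named genes are the members, at most 2 called genes per direction of each list and every measured gene of the switch list. The 2 genes most correlated with each member are also named. *Ptbp3*, *Msi2*, *Elavl1*, *Srrm3*, *Plppr3*, *Srrm4os*, *Khdrbs1*, *Lin28b*, *Atoh1*, *Mki67*, *Top2a*, *Cdk1*, *Mycn*, *Snap25*, *Vsnl1* and *Mir6236* were named after their values were seen. Alternatives were other pseudocounts, filters, scalings and fits, a looser threshold, the mouse as a block and each sample left out.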

Additional observations from a re-analysis of the deposited data

How the results depend on the processing

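In tumors against all controls, *Ptbp1*, *Elavl2*, *Msi1* and *Rbfox1* kept their direction and call under all 18 alternatives, with log2 fold changes of 2.68 to 2.89, 1.90 to 2.08, 1.68 to 1.91 and -2.67 to -2.27. *Rbfox3* lost its call under 5: -0.90 with median-of-ratios scaling, -0.85 with quantile normalization, -0.67 without tumor GB344, and -0.999 and -0.94 without control GB361 or GB517, each under the fold minimum. Between tumor and adjacent cerebellum, leaving out a sample gave 1 to 4 members called and 2377 to 3482 genes, against 4 and 3607. With the mouse as a replicate block, 4 members and 3542 genes were called there, *Rbfox3* (adjusted p = 0.00657) in place of *Ptbp1* (adjusted p = 0.0112), and the block changed no other member's call. *Ptbp1* also missed the threshold there with a pseudocount of 0.01 (adjusted p = 0.0103), no filter (0.0146) and no trend (0.0104); the range over its alternatives is given by these and the samples left out (1.18 to 1.88 on the log2 scale). The cause was not tested.

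At an adjusted p under 0.05 with no fold minimum, 8 of 10 members and 11573 of 16241 genes were called in tumors against all controls. Against Trp53-mut controls these were 7 of 10 and 10478 of 15970, and against Trp53-WT controls 7 of 10 and 10001 of 15767. Most genes thus passed in these comparisons, as most members did. Adjacent cerebellum against controls gave 2 of 10 members and 2524 of 16091 genes. Tumor against adjacent gave 7980 of 15845 genes, with *Rbfox2* and *Rbfox3* called besides the members called as reported. Between control genotypes, 71 of 15575 genes were called. Adjacent cerebellum against controls, 38 genes as reported, gave 4 with no filter, 58 and 59 with median-of-ratios and quantile scaling, 10 without a trend, and 0 to 586 with a sample left out, where members called were 0 to 1. Between control genotypes, 9 genes as reported became 2 with a pseudocount of 0.01, 3 with no filter, 3 at a minimum of 5 TPM, 4 and 3 with the scalings, 3 without a trend, 21 with all 4 groups in 1 fit, and 4 to 29 with a sample left out.

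Changes of sign occurred only in members that were not called. *Elavl3* turned positive with quantile normalization against all controls (0.036), Trp53-mut (0.0040) and Trp53-WT (0.064) controls, and with median-of-ratios scaling against Trp53-mut controls (0.0052) and adjacent cerebellum (0.023). It turned negative in adjacent cerebellum against controls with median-of-ratios scaling (-0.039). With samples left out it ran from -0.26 to 0.036 against all controls, -0.22 to 0.075 against Trp53-WT controls, -0.29 to 0.0035 against adjacent cerebellum, and -0.022 to 0.10 in adjacent cerebellum against controls; *Srrm4* ran from -0.046 to 0.27 in tumors against Trp53-WT controls. Between control genotypes, median-of-ratios scaling gave 0.0030 for *Ptbp1*, 0.015 for *Ptbp2*, 0.040 for *Elavl2* and 0.0055 for *Elavl3*, quantile normalization gave 0.0038 for *Ptbp1* and 0.056 for *Elavl2*, and leaving out a sample gave -0.13 to 0.016 for *Ptbp1* and -0.12 to 0.067 for *Elavl2*.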
